A study of Mus musculus with 6 samples.

Results

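Milk protein genes were followed in RNA of macrophages sorted from mammary glands of mice that develop mammary tumours. The set held 9 genes, taken by symbol from a deposited table of 43432 genes: the casein genes Csn1s1, Csn1s2a, Csn1s2b, Csn2 and Csn3, the whey protein genes Wap, Wfdc18 and Lalba, and Glycam1. Each symbol matched 1 row. The genes were chosen by their symbols, with the 11-week and 8-week values of these same libraries already known, so their differences between the ages are given as a description. No p-value of a milk protein gene is printed, and counts of those past a threshold are given once, beside the share of all genes, without being read as support. All mice were female FVB/N mice with the MMTV-PyMT transgene, whose viral long terminal repeat expresses the polyomavirus middle T oncogene in mammary epithelium, and no mice without the transgene are among the samples. The groups were 11 weeks of age (3 libraries), the later tumours, and 8 weeks of age (3 libraries), the earlier ones. The sort gate was CD45+, MHCII+ and CD14+, on cells of digested glands that were also stained with a viability dye. The labels number the samples within an age but do not say that each is a separate animal. Any p-value therefore reflects only how far these libraries vary, and that variation could be technical.

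Caseins are the calcium-binding proteins of milk. The alpha and beta caseins gather with calcium phosphate in micelles, and kappa-casein, the product of Csn3, coats the micelle and keeps it in solution. Whey acidic protein (Wap) is a major whey protein of rodent milk, Wfdc18 encodes another small secreted protein with the same four-disulfide core fold, alpha-lactalbumin (Lalba) turns galactosyltransferase into lactose synthase, and Glycam1 encodes a mucin-like glycoprotein secreted into milk and also made by high endothelial venules of lymph nodes. In the gland these genes are transcribed by luminal alveolar cells, where prolactin acts through its receptor Prlr and the transcription factor STAT5 together with glucocorticoids. They are not known as genes of macrophages.

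The 5 casein genes stand in 1 cluster on chromosome 5, from 87666224 to 87932665 in the GRCm38 coordinates of the deposited table. The order is Csn1s1, Csn2 (the only one on the minus strand), Csn1s2a, Csn1s2b and Csn3, and Csn3 is set 101152 bases apart from its nearest casein neighbour. Wap (6635482 to 6638637) and Wfdc18 (83709015 to 83711348) lie on chromosome 11, and Lalba (98480400 to 98482683) and Glycam1 (103562762 to 103565078) on chromosome 15. All are annotated as protein-coding, and each value is 1 total per gene.

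RefSeq promoters (GRCm38.p6) were at hand for 7 of the 9 genes. They were searched for TTCNNNGAA, the palindromic STAT5 motif, which reads the same on both strands. In the 250 bases before the start site it stood in Csn1s1, Csn2 and Glycam1, and in 7.02% of all 32851 promoters of that length. One more match, in Csn1s2a, lay just past the RefSeq start site but 89 bases before the gene start of the deposited table, the same distance as the Csn2 match. These stretches are shown because they set the caseins that are measured below side by side; each runs 5′ to 3′ on the gene's strand, with the motif match in capitals.
Csn1s1 (chr5:87666098-87666126, plus strand): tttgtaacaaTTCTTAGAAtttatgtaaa
Csn1s2a (chr5:87774460-87774488, plus strand): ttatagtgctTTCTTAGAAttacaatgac
Csn2 (chr5:87699500-87699528, minus strand): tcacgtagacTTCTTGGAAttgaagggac
Glycam1 (chr15:103565208-103565236, minus strand): gccaactcatTTCCCAGAAacaccaattc
The Csn1s1 and Csn1s2a matches have the same 9 letters, TTCTTAGAA. The motif was not found in the windows of Wap, Wfdc18 and Lalba, and the palindromic nuclear factor I motif was found in none of the 7 (0.0365% of all promoters hold it). A match in letters is a description and not a binding site. The Csn2 promoter, 250 bases before its start site on the minus strand, is shown whole because Csn2 is the most highly counted of the genes that have a RefSeq promoter and a match.
Csn2 (chr5:87699426-87699675, minus strand): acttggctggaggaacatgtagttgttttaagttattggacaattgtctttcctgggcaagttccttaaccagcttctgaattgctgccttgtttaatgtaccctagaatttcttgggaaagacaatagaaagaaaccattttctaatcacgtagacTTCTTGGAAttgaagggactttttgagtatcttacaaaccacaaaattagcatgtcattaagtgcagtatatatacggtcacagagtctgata

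The values are normalized counts, that is, gene counts that the authors divided by 1 size factor per library. The libraries held 38784434 to 75004875 recovered reads, so 1 read was worth 0.8541 to 1.38538 normalized counts, and mitochondrial ribosomal RNA took 35.2% to 51.8% of the counts. Markers of macrophages were high throughout: the 16 listed genes summed to 1093405 to 1213105 normalized counts at 11 weeks and 1225980 to 1427368 at 8 weeks. Lyz2, which encodes macrophage lysozyme, averaged 487917 ± 49709 in the 11-week libraries and 487630 ± 117660 in the 8-week libraries (SD, n = 3 per age; adjusted p by limma = 0.972).

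All 9 milk protein genes had a higher mean at 11 weeks, but they did not behave as a block. Csn3 had the highest count of the 9 in every library. Csn2, Csn1s1, Wfdc18 and Wap were also higher in every 11-week library than in any 8-week library, with wide spreads at 11 weeks. Csn1s2a, Lalba and Glycam1 overlapped between the ages, and Csn1s2b was found in a single library.

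Csn3, encoding kappa-casein, was at 32482.5, 19883.5 and 27046.4 normalized counts in 11-week replicates 1, 2 and 3, and at 5232.1, 6558.4 and 8277.1 in the 8-week replicates. The lowest 11-week library was thus well above the highest 8-week library. The log2 difference, 11 minus 8 weeks, was 1.98 ± 0.21 (SE, n = 3 per age), on the scale of log2(normalized count + 1), as are all log2 differences below. The highest library exceeded the lowest by 1.63 times at 11 weeks and by 1.58 times at 8 weeks. A gene on the opposite strand, 1700066N21Rik, overlaps Csn3 and is listed at 0 in all 6 libraries.

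Csn2, encoding beta-casein, was at 9483.5, 2652.3 and 4570.7 normalized counts in the 11-week replicates and at 1440, 1443.6 and 1991.8 in the 8-week replicates. The 11-week libraries differed among themselves by 3.58 times and the 8-week libraries by 1.38 times, with no overlap between the ages. The log2 difference was 1.6 ± 0.36 (SE, n = 3 per age).

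Csn1s1, encoding alpha-S1 casein, was at 3976.8, 1140.1 and 3468.6 normalized counts in the 11-week replicates and at 782, 1119.4 and 1035.2 in the 8-week replicates. The ages were separated by a narrow margin only, since 11-week replicate 2 was almost level with 8-week replicate 2. The log2 difference was 1.37 ± 0.39 (SE, n = 3 per age), and it was 1.94 without 11-week replicate 2 and 1.04 without 11-week replicate 1.

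Csn1s2a, encoding an alpha-S2 casein, was at 2286.8, 303.4 and 1154.7 normalized counts in the 11-week replicates and at 221.1, 407.3 and 53 in the 8-week replicates. Here 11-week replicate 2 fell inside the 8-week range, while the other two lay above it. The spread within an age was 7.54 times at 11 weeks and 7.68 times at 8 weeks. The log2 difference was 2.45 ± 0.74 (SE, n = 3 per age), and it was 3.26 without 11-week replicate 2 and 1.63 without 8-week replicate 3.

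Csn1s2b, encoding the second alpha-S2 casein, had 11 reads in 11-week replicate 3, or 10 normalized counts with an exact 95% Poisson interval of 4.98 to 17.8. The other 5 libraries had no read, where 3 reads, the one-sided limit that a count of 0 allows in a library, would be 2.56 to 4.16 normalized counts (the interval above is two-sided). Intervals and limits of this kind cover counting error only. Its fitted difference depends on the pseudocount and is not a measure of the size of the change.

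Wfdc18 was at 4232.4, 2294.4 and 9769.5 normalized counts in the 11-week replicates and at 1557.7, 842.3 and 1311.9 in the 8-week replicates. Unlike the abundant caseins, it was highest in 11-week replicate 3. The log2 difference was 1.93 ± 0.41 (SE, n = 3 per age).

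Wap was at 187.6, 57.5 and 315.4 normalized counts in the 11-week replicates and at 44.6, 1.4 and 30.7 in the 8-week replicates. The 8-week value of 1.4 was a single read, with an exact Poisson interval of 0.0351 to 7.72 normalized counts. Its log2 difference was 3.32 ± 1.20 (SE, n = 3 per age), and it was 2.0 without that library.

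Lalba was at 308.9, 37.3 and 60.7 normalized counts in the 11-week replicates and at 41.9, 44.3 and 5.1 in the 8-week replicates. One 11-week library, replicate 1, carried most of the 11-week signal, and replicate 2 lay within the 8-week range. The log2 difference was 1.98 ± 1.15 (SE, n = 3 per age), equal in size to that of Csn3 but with an error more than 5 times as large, and it was 1.03 without 8-week replicate 3.

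Glycam1 was at 177.5, 11.1 and 147.7 normalized counts in the 11-week replicates and at 35.7, 0 and 63.2 in the 8-week replicates. The 11-week libraries span a 16-fold range, and replicate 2 again lay inside the 8-week range. The log2 difference was 2.36 ± 1.55 (SE, n = 3 per age), and it was 0.50 without 8-week replicate 2, the library with no read, and 3.61 without 11-week replicate 2.

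**Figure D1:**
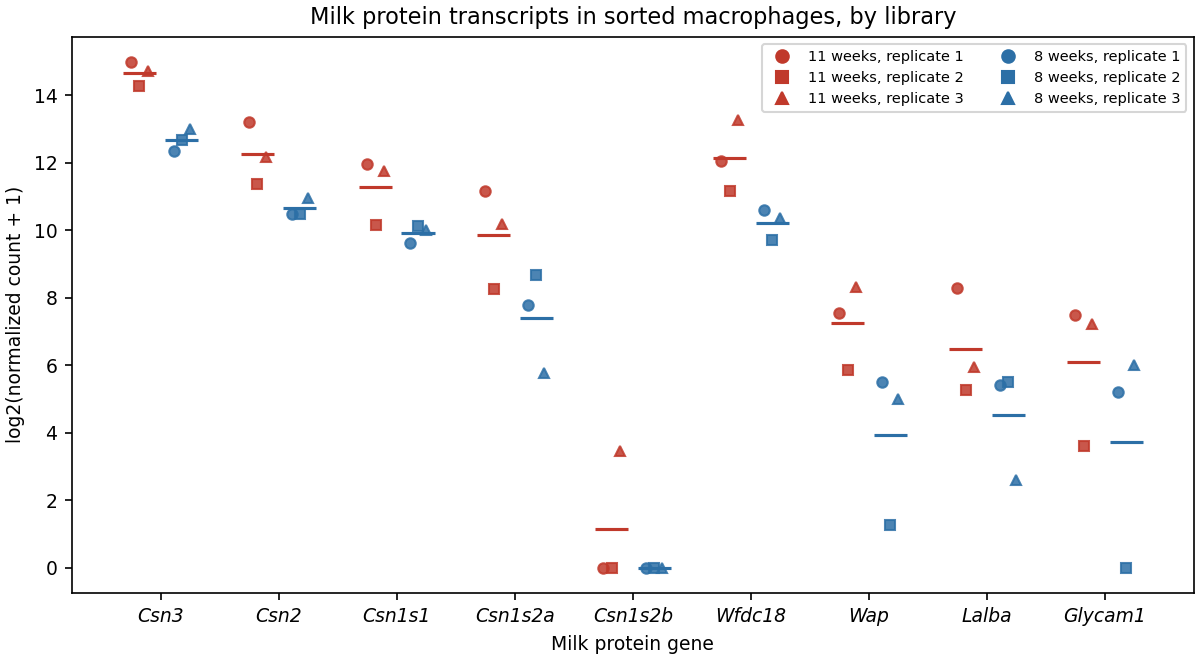
Normalized counts of the 9 milk protein genes on the scale log2(normalized count + 1), with 1 point per library (11 weeks red, 8 weeks blue; shapes mark replicates 1 to 3) and a line at the mean of each age. Replicate 2, the square, is the lowest 11-week library in 8 genes, and Csn3 shows the widest gap between the ages relative to its spread among the abundant genes.

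In a limma fit across 21675 genes, all 9 milk protein genes were tested, Csn1s2b only through its 11-week mean. At an adjusted p under 0.05, 1 of the 9 was called higher at 11 weeks, Csn3, where 0.0369% of all genes tested were called higher, 0.0138% lower and 0.0507% in either direction. On recovered reads edgeR called 1 of the 9, against 0.0646% of all genes tested, and DESeq2 5, against 1.95%. Values did not overlap, and were higher at 11 weeks, in 5 of the 9, against 6.81% of all genes tested, and in none of the 9 lower, against 5.12%. The difference was positive in all 9, against 52.8% of all genes tested, but that of Csn1s2b, which has no read at 8 weeks, could only be positive. The median log2 difference was 1.98 over the 8 genes with reads at both ages and 0.05 over all genes tested. These counts come from the contrast with which the set was drawn up, and nothing is read from them. Of the 9 genes, 4 have an adjusted p under 0.05 and a positive log2 fold change in the authors' deposited table, Csn3, Wfdc18, Csn2 and Csn1s1, against 1.13% of the genes with an adjusted p there. That table's log2 fold changes were 1.794 for Csn3, 1.596 for Wfdc18, 1.403 for Csn2, 1.212 for Csn1s1 and 1.324 for Csn1s2a, and 1.049, 0.782 and 0.443 for Wap, Lalba and Glycam1. For Csn1s2b, which has no adjusted p there, the value was 0.133. The authors' deposited table thus gives Wap, Lalba and Glycam1 smaller changes than the abundant genes, whereas their differences on the log2(normalized count + 1) scale were not smaller than that of Csn3. That order depends on the scale. With a pseudocount of 8 Lalba and Glycam1 were at 1.62 and 1.49, below Csn3 at 1.98, and Wap was at 2.59. By edgeR and DESeq2 Glycam1 was at 1.74 and 1.76, below Csn3 at 1.97 and 1.98. Lalba (2.13 and 2.16) and Wap (2.83 and 2.86) were above it there.

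**Figure D2:**
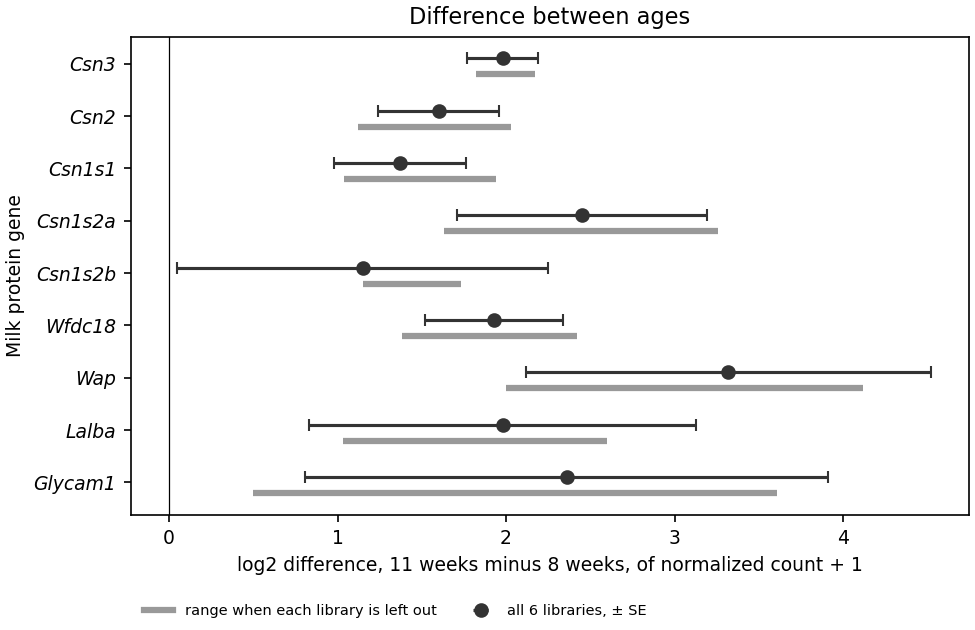
Difference between 11 and 8 weeks for each milk protein gene (x axis, log2 of normalized count + 1); the dot is the value from all 6 libraries with its SE, and the grey bar the range of values when each library is left out in turn. Csn3 (1.98 ± 0.21) has the shortest error bar, and Glycam1 ranges from 0.50 to 3.61 as libraries are left out. The Csn1s2b value rests on the 11 reads of 1 library and has no value without it.

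Levels of different genes were compared per kilobase of the principal transcript. At 11 weeks Csn3 was at 16586 ± 3959 normalized counts per kb, Wfdc18 at 10426 ± 7446, Csn2 at 4190 ± 2651, Csn1s1 at 2028 ± 1072 and Csn1s2a at 1357 ± 1082 (SD, n = 3). At 8 weeks the levels, in the same unit, were 4191 ± 957 for Csn3, 2375 ± 698 for Wfdc18, 1223 ± 239 for Csn2, 694 ± 124 for Csn1s1 and 247 ± 193 for Csn1s2a (SD, n = 3). The order of these 5 mean levels was the same at both ages. Neighbours in that order differed by less than the larger of their SDs at 11 weeks and by more than it at 8 weeks. Wap, Glycam1 and Lalba followed at 339 ± 234, 179 ± 141 and 176 ± 195 normalized counts per kb in 11-week libraries and 46.4 ± 40.0, 52.5 ± 50.5 and 39.5 ± 28.5 in 8-week libraries (SD, n = 3), and did not differ among themselves beyond their spread. Csn3 made up 38.7% to 61.8% of the summed level per kb of the 9 genes at 11 weeks and 39.3% to 51.1% at 8 weeks.

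Ratios within a library do not depend on how libraries are scaled. Csn2, per kb, stood at 35.1%, 16% and 20.3% of Csn3 in 11-week replicates 1, 2 and 3, and at 33.1%, 26.4% and 28.9% in the 8-week replicates. Csn1s1 stood at 13.8%, 6.49% and 14.5% of Csn3 at 11 weeks and at 16.9%, 19.3% and 14.1% at 8 weeks. Both ratios were lowest in 11-week replicate 2, where Csn3 was at 19883.5 normalized counts and Csn2 and Csn1s1 at 2652.3 and 1140.1. Csn1s2a stood at 12.2%, 2.65% and 7.41% of Csn3 at 11 weeks and at 7.33%, 10.8% and 1.11% at 8 weeks, so 8-week replicate 3, the library with the most Csn3 at its age, had the least Csn1s2a relative to it. Wfdc18 stood at 39.9%, 35.3% and 111% of Csn3 at 11 weeks and at 91.2%, 39.3% and 48.6% at 8 weeks, and exceeded Csn3 per kb in 11-week replicate 3. In each of these 4 ratios the ages overlapped.

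**Figure D3:**
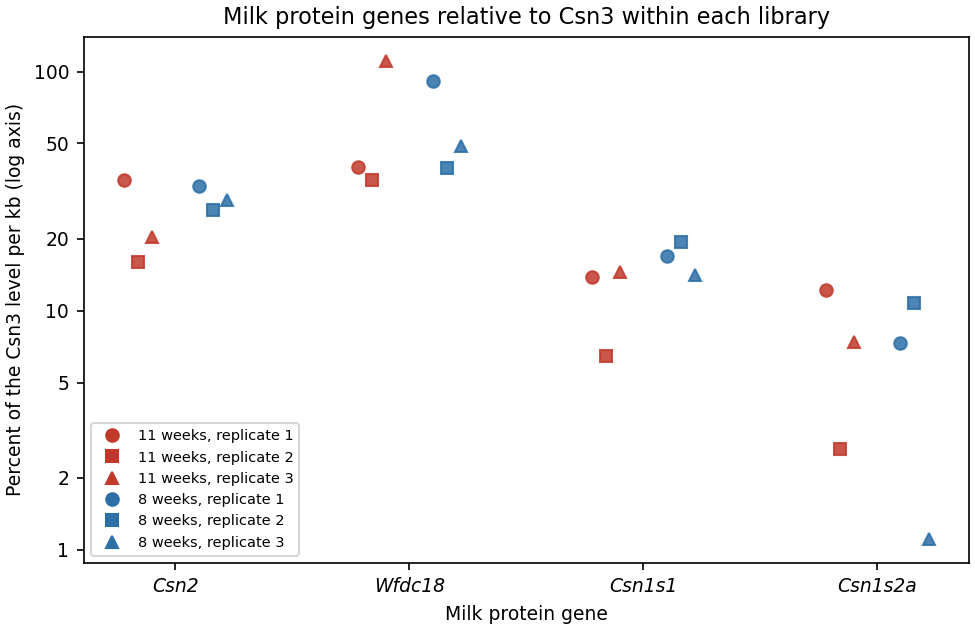
Level per kb of Csn2, Wfdc18, Csn1s1 and Csn1s2a as a percentage of the Csn3 level per kb in the same library (y axis, logarithmic), with 1 point per library. The ages overlap in every column, and Csn1s2a varies most, from 1.11% to 12.2%.

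Over the 9 genes, counts summed to 53136, 26379.6 and 46543.7 normalized counts in the 11-week replicates, or 0.0927%, 0.0488% and 0.0806% of each library. In the 8-week replicates the sums were 9355.1, 10416.7 and 12768 normalized counts, or 0.0216%, 0.0194% and 0.0199%. The 11-week sums all exceeded the 8-week sums, and replicate 2 was the lowest 11-week library in 8 of the 9 genes. The other gene, Csn1s2b, had no read in replicates 1 and 2.

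Summed epithelial markers also had a higher mean at 11 weeks, and, like 8 of the 9 milk protein genes, were lowest in replicate 2 among the 11-week libraries. The 15 luminal markers, keratins and junction proteins among them, summed to 6416, 2142.1 and 6986 normalized counts in the 11-week replicates and to 2787.3, 2554.8 and 1943.9 in the 8-week replicates. The 12 basal markers summed to 618, 288.4 and 587.1 at 11 weeks and to 362.1, 167.7 and 242.7 at 8 weeks. Both sums overlapped between the ages, and the exact two-sided permutation p was 0.3 for the luminal and 0.2 for the basal sum (n = 3 per age; 0.337 and 0.257 adjusted over 9 marker lists), where 3 against 3 libraries cannot go below 0.1. The 11-week order of the luminal sum, with replicate 3 highest, was that of Wfdc18 and Wap, and not that of Csn3, Csn2 and Csn1s1, which were highest in replicate 1. In single genes the luminal list had 13 of 14 tested members positive (52.8% of all genes tested) with a median log2 difference of 1.78. None passed the limma test. At an unadjusted p under 0.05, 5 were higher (4.76% of all genes tested), and none passed by edgeR and 3 by DESeq2 (0.0646% and 1.95% of all genes tested). The basal list had 7 of 10 tested members positive, a median of 1.16 and none past the limma test. Of these, 2 were higher at an unadjusted p under 0.05, none passed by edgeR and 1 by DESeq2, beside the same shares of all genes (4.76%, 0.0646% and 1.95%). Of the luminal markers Ly6d was at 0 in 5 libraries and at 0.9 in 11-week replicate 3, and of the basal markers Krt15 was listed at 0 in all 6. Krt5, a basal keratin, was at 140.7, 8.1 and 171.3 in the 11-week replicates and at 0, 0 and 21.4 in the 8-week replicates. The basal keratin Krt14 did not rise with it, at 3.7, 0 and 63.4 in the 11-week replicates and at 22.3, 12.5 and 6 in the 8-week replicates (log2 difference -0.95). Krt17, a further keratin of the basal list, was at 5.3 or below in every library. Krt14 and Krt17 were picked once their values were known.

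Levels of Krt18, a luminal keratin, were 860.6, 251 and 1413.9 normalized counts in the 11-week replicates and 142.7, 199.5 and 257.9 in the 8-week replicates (limma adjusted p = 0.403). Cdh1, encoding E-cadherin, was at 753 ± 243 in 11-week and 477 ± 337 in 8-week libraries (SD, n = 3 per age; adjusted p by limma = 0.713), and Cd24a, a surface glycoprotein gene that B cells also express, at 1397 ± 898 in 11-week and 1102 ± 507 in 8-week libraries (SD, n = 3 per age; adjusted p by limma = 0.918). The basal markers Acta2 and Mylk, of contractile cells, were at 137 ± 8.19 and 85.5 ± 49.6 in 11-week libraries and at 66.1 ± 75.4 and 150 ± 51.1 in 8-week libraries (SD, n = 3 per age; adjusted p by limma = 0.669 and 0.802). Per summed luminal count, Csn3 was at 5.06, 9.28 and 3.87 in the 11-week replicates and 1.88, 2.57 and 4.26 in the 8-week replicates. The ratio was highest in 11-week replicate 2, the 11-week library with the fewest luminal counts, and 11-week replicate 3 lay below 8-week replicate 3. For Csn2 the same ratio was 1.48, 1.24 and 0.654 at 11 weeks and 0.517, 0.565 and 1.02 at 8 weeks. The part of epithelial RNA in the milk transcripts was not tested, and in bulk RNA fewer cells of a type and less RNA per cell cannot be told apart.

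Markers of other cells were summed in the same way. Fibroblast markers (10 genes) lay between 1840.7 and 4374.9 normalized counts at 11 weeks and between 1219.7 and 2317.7 at 8 weeks, and, like the milk genes, were lowest in replicate 2 among the 11-week libraries. Neutrophil markers (12 genes) lay between 5101 and 7019.2 at 11 weeks and between 2825.4 and 5210.5 at 8 weeks, and were highest in 11-week replicate 2. Endothelial markers (10 genes), relevant to Glycam1, lay between 730.1 and 1357.7 at 11 weeks and between 511.2 and 649 at 8 weeks. Most of that difference lay with Cdh5. Of the 9 endothelial markers with reads at both ages 5 were positive, with a median log2 difference of 0.1. B and plasma cell markers (11 genes) lay between 8067.6 and 11224.2 at 11 weeks and between 12510 and 15316.5 at 8 weeks, T and NK cell markers (10 genes) between 2646.4 and 3953.8 at 11 weeks and between 4016.1 and 5061.9 at 8 weeks, and adipocyte markers (10 genes) between 650.2 and 1269 at 11 weeks and between 520.8 and 1264.9 at 8 weeks. Within the T and NK cell list the lower sum lay with Cd4 and Cd2, while 6 of 10 members were positive, with a median log2 difference of 0.91. Cd3e, a CD3 chain gene, and Trac, a T cell receptor gene, averaged 231 and 53.4 normalized counts in 11-week libraries. In 8-week libraries they averaged 46.3 and 9.17, both without overlap (adjusted p by limma = 0.389 and 0.613). The CD3 chain gene Cd3g went the other way, with overlap, at 2.8, 53.4 and 9.1 in the 11-week replicates and 85.6, 33.2 and 63.2 in the 8-week replicates (log2 difference -2.17, adjusted p by limma = 0.705). Cd3d, a further CD3 chain gene, overlapped between the ages (log2 difference 1.71). Trac, Cd3g and Cd3d were picked once their values were known. The exact permutation p was 0.1, the smallest possible, for the endothelial, B and plasma cell, T and NK cell and macrophage sums, 0.2 for fibroblasts and neutrophils and 1 for adipocytes (n = 3 per age; 0.225 to 1 when adjusted over the 9 lists). Of the macrophage markers, Cd74 and H2-Ab1, both of MHC class II and so near the sort gate, fell (log2 differences -0.98 and -0.84; limma adjusted p = 0.00111 and 0.0127), 2 of 16 where 0.0138% of all genes tested were called lower. The lower macrophage sum lay with these 2 genes. Cd74 averaged 104665 normalized counts in 11-week and 206799 in 8-week libraries, and H2-Ab1 79304 and 141395. The median log2 difference of the macrophage list was -0.03. The Cd74 call was lost without 8-week replicate 1 (adjusted p by limma 0.0579), and the H2-Ab1 call without 11-week replicate 1 or any 1 of the 8-week replicates (0.0705 to 0.137), by edgeR (0.114), with scaling to library totals (0.104) and with a pseudocount of 8 (0.0591). In the same list 4 genes were higher and 4 lower without overlap between the ages, where 6.81% of all genes tested were higher and 5.12% lower. Cd14, itself a gate marker and chosen after its values were seen, was among the higher ones, at 30445, 32594.4 and 38151 normalized counts in the 11-week replicates and at 22844.6, 23109.5 and 19463.2 in the 8-week replicates (log2 difference 0.63; adjusted p by limma = 0.198), as were Mrc1, C1qb and Fcgr1. Besides Cd74 and H2-Ab1, the lower ones were Csf1r and Ptprc, which encodes the gate marker CD45. Ptprc, also chosen after its values were seen, was at 24310.2, 29260.7 and 24888.4 in the 11-week replicates and at 37120.6, 33328 and 34233.1 in the 8-week replicates (log2 difference -0.42, adjusted p by limma = 0.434). The part of these cells in the differences of the milk genes was not tested.

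**Figure D4:**
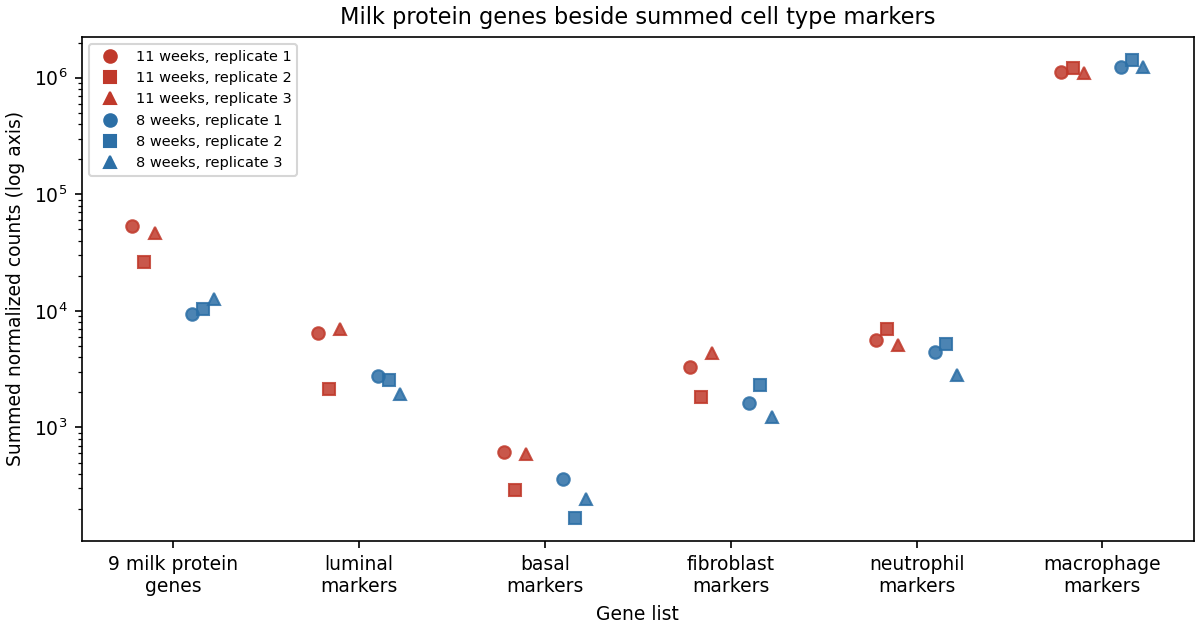
Summed normalized counts (y axis, logarithmic) of the 9 milk protein genes and of 5 lists of cell type markers, with 1 point per library. The milk sums separate the ages (26379.6 and above at 11 weeks, 12768 and below at 8 weeks), while the luminal, basal, fibroblast and neutrophil sums overlap. The macrophage sums are lower at 11 weeks without overlap, a difference that lay with Cd74 and H2-Ab1.

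The other genes of milk production were taken from 6 lists. Of 94 tested entries 1 rose, Lcn2, and none fell in the limma fit, where 0.0369% of all genes tested were called higher. At an unadjusted p under 0.05, 28 were higher and 1 lower (all genes tested, 4.76% higher and 8.03% in either direction). edgeR and DESeq2 called 2 and 9 of the entries, against 0.0646% and 1.95% of all genes tested. Lcn2 encodes lipocalin 2, a siderophore-binding protein found in milk and in neutrophils. It was at 6616.6, 2597.8 and 5011.2 normalized counts in the 11-week replicates and at 1124.4, 1172 and 923.3 in the 8-week replicates (log2 difference 2.05 ± 0.31, SE, n = 3 per age; limma adjusted p = 0.0188). Like Csn3 it was lowest at 11 weeks in replicate 2. Its call was lost when any 1 library other than 11-week replicate 2 was left out (log2 difference 1.76 to 2.11, adjusted p by limma 0.0708 to 0.264). The list of other secreted milk and gland proteins that holds Lcn2 had 17 tested members. Of these 5 (Pthlh, Wfdc2, Wfdc3, Wfdc12 and Lpo) had no read at 8 weeks and could only be positive, and the other 12 were positive too, with a median log2 difference of 1.74. Its most abundant members were Spp1 (osteopontin), at 26387 ± 8679 in the 11-week and 15311 ± 6496 in the 8-week libraries (SD, n = 3 per age; adjusted p by limma = 0.483), and Trf (transferrin), at 3537 ± 847 in 11-week and 2880 ± 656 in 8-week libraries (SD, n = 3 per age; adjusted p by limma = 0.81), both of which macrophages also make.

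Genes of lactose synthesis and sugar supply had 8 of 11 members positive and a median log2 difference of 0.21. B4galt1, the galactosyltransferase that alpha-lactalbumin binds, was at 7818.4, 13589 and 10511.8 normalized counts in the 11-week replicates and at 7729.6, 9801.5 and 6985.7 in the 8-week replicates (limma adjusted p = 0.729). Among the 11-week libraries it was highest in replicate 2, where Lalba was lowest. Slc2a1, a glucose transporter, and the hexokinase gene Hk2 were at 3930 ± 386 and 6323 ± 804 in 11-week libraries and at 2362 ± 1234 and 5642 ± 1929 in 8-week libraries (SD, n = 3 per age; adjusted p by limma = 0.479 and 0.831).

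Milk fat genes had 13 of the 20 members with reads at both ages positive, with a median log2 difference of 0.41, and their most abundant members had negative differences. Plin2, which coats lipid droplets, Cd36, a fatty acid transporter, and lipoprotein lipase (Lpl) were at 21846 ± 2925, 12712 ± 2871 and 5893 ± 1391 in 11-week libraries and at 24081 ± 2218, 13689 ± 2888 and 8590 ± 448 in 8-week libraries (SD, n = 3 per age; adjusted p by limma = 0.829, 0.894 and 0.479). Transport genes had 10 of the 12 with reads at both ages positive and a median of 0.64. Their most abundant members, the Golgi calcium pump gene Atp2c1 and the amino acid transporter genes Slc1a5 and Slc7a5, had log2 differences of -0.11, 0.40 and 1.01 (limma adjusted p = 0.936, 0.829 and 0.738).

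Genes of prolactin and glucocorticoid signalling had 13 of 17 positive and a median log2 difference of 0.16. Their most abundant members were Socs3, a feedback inhibitor of cytokine receptors, Ptpn1, a tyrosine phosphatase, and the glucocorticoid receptor gene Nr3c1. They were at 8636 ± 2501, 4949 ± 220 and 5411 ± 1264 in 11-week libraries and at 7387 ± 1202, 5498 ± 173 and 5066 ± 366 in 8-week libraries (SD, n = 3 per age; adjusted p by limma = 0.83, 0.839 and 0.937). Some members were chosen after their values were seen. Prlr, the prolactin receptor, was at 260.2, 174.4 and 165 normalized counts in the 11-week replicates and at 71.3, 5.5 and 2.6 in the 8-week replicates, without overlap (limma adjusted p = 0.31). Stat5a, encoding a STAT5 protein, was at 990.3, 611.9 and 1921.5 in the 11-week replicates and at 894.3, 1253.8 and 1095 in the 8-week replicates (limma adjusted p = 0.988). Nfib, a nuclear factor I gene, was at 2261, 774.2 and 1159.2 at 11 weeks and at 252.3, 320 and 243.4 at 8 weeks (limma adjusted p = 0.0877), and was the second gene that edgeR called in these lists.

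Alveolar lineage regulators had 10 of the 12 members with reads at both ages positive, with a median log2 difference of 0.88, and 3 more (Tnfsf11, Pgr and Elf3) had no read at 8 weeks and could only be positive. Elf5, the transcription factor of alveolar cells, chosen after its values were seen, was at 671.2, 144.2 and 448.6 normalized counts in the 11-week replicates and at 36.6, 99.7 and 155.4 in the 8-week replicates. Its 11-week replicate 2 lay within the 8-week range (limma adjusted p = 0.451). The most abundant members were Id2, an inhibitor of helix-loop-helix factors, Tnfrsf11a, the receptor RANK, and Ehf, an epithelial ETS factor. They were at 6070 ± 1716, 5638 ± 2525 and 547 ± 323 in 11-week libraries and at 5294 ± 599, 4132 ± 2026 and 368 ± 64.1 in 8-week libraries (SD, n = 3 per age; adjusted p by limma = 0.853, 0.811 and 0.827).

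Within 200 kb of the casein cluster the table lists 17 genes besides the caseins, 5 of them inside it. Only 4 had any read, and none came near the level of the abundant caseins. Odam, which encodes an odontogenic and ameloblast-associated protein and lies between Csn1s2b and Csn3, was at 8.2 normalized counts in 11-week replicate 3 and at 0 in the other 5 libraries. That was also the only library with reads of Csn1s2b and, at 1.8 normalized counts, of Sult1e1, an estrogen sulfotransferase gene. BC051076 was at 5.5 in 8-week replicate 2 and at 0 elsewhere, and Gm7337 was at 1 or below in every library. The other 13, among them the sulfotransferase genes Sult1b1 and Sult1d1, were listed at 0 in all 6.

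Likeness was measured over 10727 genes whose mean reached 100 normalized counts. Those whose log2 values ran most like Csn3 over the 6 libraries were Babam1, Rab7, Emp1, Ccl7 and Acot13, with Pearson r of 0.998, 0.988, 0.987, 0.987 and 0.984. Ccl7 encodes a monocyte-attracting chemokine and Emp1 an epithelial membrane protein. Of the other milk genes that reached this mean, the closest to Csn3 was Csn2, at 0.923, which ranked 80 among all these genes. Lalba, Glycam1 and Csn1s2b did not reach it and were not compared. For Csn2 the closest genes were C1qb, a complement gene of macrophages, at 0.994, and Vcan, C530043A13Rik, Rcn3 and Ankrd27 at 0.986, 0.986, 0.985 and 0.981. For Csn1s2a they were Pdzd2, Edrf1, Parva, Tmem51 and Errfi1 at 0.993, 0.988, 0.987, 0.98 and 0.976, while Csn3 stood at 0.719. These values describe 6 libraries that fall into the 2 ages, and so many genes reach high values over so few points that no p is given.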

How the data were processed

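RNA of sorted macrophages was measured in 6 libraries. Per the labels' protocols, under 100 ng of RNA went through Nugen Ovation and Nextera kits. STAR 2.4, DESeq2 1.6 and GRCm38 appear, with no role, in the submitters' processing notes. The counting tool and its use of strand: not given in the sources used here. Each deposited signal value is a gene's count that was scaled by its library's size factor. The deposited table also holds the authors' log2 fold change, fold ratio, p-value and adjusted p-value. Dividing each library by its step gave whole reads within 0.05 for at least 99.935% of nonzero values.

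Members and lists were chosen with earlier results of these data known. The fit was limma 3.58.1 (trend, robust) on log2(value + 1), age as the only term, for genes with a mean of at least 1 in either age, with Benjamini-Hochberg adjustment at 0.05. edgeR 4.0.16 quasi-likelihood and DESeq2 1.42.0 on recovered reads, other scalings, pseudocounts, filters, a replicate block and leaving out each library, with the filter applied anew, were the alternatives. The fits were tested on simulated data. Named are all 9 genes; of each list the called genes and the 3 most abundant; genes within 200 kb of the caseins; and the 5 genes most like Csn3, Csn2 and Csn1s2a. All 204 list entries matched, 201 by symbol and 3 by gene ID. Transcript lengths come from GENCODE vM21, and promoters from RefSeq. Tools were R 4.3.3, Python 3.11.15, scipy 1.17.1 and matplotlib 3.10.9. Libraries of 1 age differed well beyond sampling noise (chi-square over its degrees of freedom 116.25 or more).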

Additional observations from a re-analysis of the deposited data

How the results depend on the processing

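All 9 log2 differences stayed positive under every alternative run. Of 80 values under other tests, scalings, pseudocounts, filters and the block, 78 moved by less than 1 SD between replicates. The other 2 were Csn1s2b by edgeR (4.83) and DESeq2 (4.15), against 1.15, where 1 library holds all reads. In this balanced design the filters and the block could not change a difference, so their values equal the main ones by construction. The SD is also wide for some genes. That of Glycam1 was 2.77, so a move from 2.36 to 1.49 with a pseudocount of 8 lies within it. Fits that leave out a library are not among the 80. Csn1s2b had no value without 11-week replicate 3 or with a mean of at least 10. The count of 11 called genes was 422 by DESeq2, 6 with scaling to totals, 5 with a pseudocount of 8 and 45 with the replicate block, and 3 to 16 as each library was left out (3 without 8-week replicate 1, 4 without 11-week replicate 1, 16 without 11-week replicate 2). For the milk pathway lists the count of 1 was 2 by edgeR, 9 by DESeq2, 0 with a pseudocount of 8 and 2 with the block, and 0 to 1 as each library was left out (1 only without 11-week replicate 2, so each other library ended the Lcn2 call). For the marker lists the count of 2 was 1 by edgeR, 12 by DESeq2, 1 with scaling to totals, 1 with a pseudocount of 8 and 4 with the block, and 0 to 2 as each library was left out (0 without 8-week replicate 1). The cause was not tested. Same-numbered libraries did not deviate together (correlations -0.014 to -0.006 across 12223 genes), so the numbers were not taken as pairs. Depth limits Wap, Lalba, Glycam1 and Csn1s2b, which hold few reads in some libraries.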

Other observations

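The most abundant markers of the other cell types differed in how they ran across the libraries. S100a9, a calcium-binding protein of neutrophils, was at 1191.6, 1522.2 and 1051.4 normalized counts in the 11-week replicates and at 146.2, 137.2 and 2.6 in the 8-week replicates (limma adjusted p = 0.175), and among the 11-week libraries was highest in replicate 2, where 8 of the 9 milk genes were lowest. Neutrophil markers more abundant than S100a9 did not rise with it. Mmp9 was at 570.1, 482.9 and 678.9 in the 11-week replicates and at 1281.3, 968.4 and 1111.2 in the 8-week replicates (limma adjusted p = 0.442). Csf3r averaged 2490 in 11-week and 2424 in 8-week libraries (limma adjusted p = 0.92). Of the 9 tested neutrophil markers 7 were positive. Cdh5, encoding the endothelial cadherin, was at 327 ± 225 in the 11-week libraries and at 37.1 ± 29.5 in the 8-week libraries (SD, n = 3 per age; limma adjusted p = 0.291), and its 11-week libraries had the same order as those of Csn3, Csn2, Csn1s1, Csn1s2a, Lalba and Glycam1. Pecam1, the most abundant endothelial marker, was at 256 ± 160 in 11-week and 204 ± 74.6 in 8-week libraries (SD, n = 3 per age, adjusted p by limma = 0.974). Vwf was at 110 ± 70.0 in 11-week and 165 ± 153 in 8-week libraries (SD, n = 3 per age, adjusted p by limma = 0.933). The collagen gene Col1a1 was at 848.7, 345.8 and 648 in the 11-week replicates and at 248.8, 231.4 and 125.6 in the 8-week replicates (limma adjusted p = 0.399). Ighm, the immunoglobulin heavy chain of naive B cells, was lower in every 11-week library (8975.1, 7127.2 and 9096.1) than in any 8-week library (14133.3, 11228.5 and 12840.5; limma adjusted p = 0.334). The limma adjusted p was 0.389 or more for Csf3r, Mmp9, Sdc1, Igkc, Cd3e, Cd4, Cd2, Col3a1, Postn, Lipe, Car3, Fabp4, Pecam1 and Vwf.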
